A study of Drosophila melanogaster with 12 samples.

Results

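The replication-dependent histone genes and BigH1, the linker histone of the early Drosophila embryo, were followed on 12 two-colour arrays. Members were the probes whose gene symbol begins with His1, His2A, His2B, His3 or His4 followed by a colon, the form given to the replicated copies, or reads BigH1. They came to 10 of the 14485 probes analysed and to 7 of the 11980 gene symbols that a probe carried alone. Each of the symbols His1:CG31617, His2A:CG31618, His2B:CG17949, His3:CG31613, His4:CG31611 and BigH1 had 1 probe, and His2B:CG40461 had 4. The group was proposed with the ratios of construct over GFP in view, split by dye, so those ratios are given below as a description, without p-values, and counts of them past a threshold support nothing.

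The core histones H2A, H2B, H3 and H4 form the nucleosome, and H1 binds the linker DNA between nucleosomes. In Drosophila the replication-dependent genes lie in a repeated cluster, are expressed in S phase and give mRNAs that generally end in a stem-loop in place of a poly(A) tail. BigH1 is the maternally supplied embryonic H1, which is replaced by the somatic H1 in somatic nuclei when the zygotic genome becomes active and is kept in germ cells. Replacement of the maternal store by zygotic histone mRNA is part of the passage from rapid cleavage cycles to patterned cell division.

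The RNA was that of intact Drosophila melanogaster embryos, aged 3.5 to 4.5 h (stage 8 to 9) and grown at 25 °C. All groups, the controls included, carried the simGal4 driver, which is active in the midline cells of the nervous system, with a UAS transgene. The transgene was EnRep, Dichaete WT (the wild-type form of Dichaete, a Sox-family transcription factor) or HMG- in 4 biological replicates each, and UAS GFP in the control hybridised on every array. Cy3 marked the construct sample on replicates 1 and 2, and Cy5 marked it on replicates 3 and 4. Dye orientation and pair of replicates therefore cannot be told apart, and a split by dye below is also a split between these pairs. The driver acts in few of the cells of a whole embryo, so that a change in a small cell population, a change in all cells and a change in the number of cells that express a gene cannot be told apart. The series' design text calls the expressed constructs dominant negative and does not describe their structure, and the files give no age for a single collection.

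Median foreground intensity per array lay between 216 and 373 in Cy3 and between 244 and 365 in Cy5, and the number of arrays limits the precision. D, the gene of Dichaete, was 0.47 log2 above GFP in Dichaete WT embryos (SE 0.08, limma adjusted p = 0.0208), reading 0.97 and 1.09 on its Cy3 arrays but -0.06 and -0.14 on its Cy5 arrays. It was at 0.37 in EnRep (adjusted p = 0.0554) and 0.19 in HMG- embryos (adjusted p = 0.317), with 0.58 to 0.71 on their Cy3 arrays and -0.28 to 0.08 on their Cy5 arrays. D did not differ past the threshold between EnRep and Dichaete WT (-0.10, adjusted p = 0.997) or HMG- and Dichaete WT (-0.27, adjusted p = 0.903). Spots for the stage 8 to 9 genes en, hh, SoxN, l(1)sc, twi, htl, sli, comm and Doc2 were accepted in both channels on all 12 arrays, and those of pnr and zen on 11 and 7. Of the yolk protein and vitelline membrane genes, Yp2 was accepted on 12 arrays, Yp3 on 11, Vm26Aa on 6 and Yp1 on 5, at median foregrounds of 1.59 to 2.47 times the local background. Mlc2 and Cpr62Bc, genes of later embryos, were accepted on 12 and 11 arrays, at 7.53 and 3.45 times the local background. Late muscle and cuticle genes, 10 of a list of 13, had a median log2 ratio of 1.90 on EnRep replicate 4, 0.86 on Dichaete WT replicate 1 and 1.34 on Dichaete WT replicate 2, against -0.81 to 0.01 on the other 9 arrays. Results below are given with and without these 3 arrays where they differ.

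The probes of His1:CG31617, His2A:CG31618, His2B:CG17949, His3:CG31613 and His4:CG31611 are called the clustered histone probes here. In RefSeq genes of assembly Release 6 plus ISO1 MT these 5 genes are neighbours, in the order His1, His2B, His2A, His4 and His3, with a small non-coding RNA gene between His2A and His4. RefSeq lists 111 such histone genes, 23 each for His1, His2B and His3, 22 for His4 and 20 for His2A. The copies are near-identical, so a probe named for 1 copy is likely to take signal from the others, and a value below stands for a histone family more than for the named copy. His2B:CG40461 was not matched to RefSeq and its place is not given here. Labelling began from an anchored oligo(dT) primer, per the labels, and how well mRNAs without a poly(A) tail were taken up was not tested.

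The clustered histone probes were above GFP on all 4 EnRep arrays, on all or 3 of the Dichaete WT arrays and on 3 of the HMG- arrays. Per array, the median of the 5 probes was 0.40, 0.43, 1.29 and 1.01 log2 on EnRep replicates 1 to 4. It was 0.44, 0.14, 0.55 and 0.77 on the Dichaete WT replicates and -0.35, 0.41, 0.32 and 0.39 on the HMG- replicates. The group means were 0.78 ± 0.44, 0.48 ± 0.26 and 0.19 ± 0.36 (SD, n = 4 each), and the ranges of the 3 groups overlapped. EnRep replicates 3 and 4 were the highest 2 arrays of the series, and HMG- replicate 1 was the lowest and the only array where the median was below 0. Both EnRep arrays with the construct in Cy5 lay above every other array in log2 ratio, at positions above 99.9% and 97.3% of all probes on the same array. By position they were not the highest 2, since the median of Dichaete WT replicate 4 stood above 99.5% of the probes on its array.

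His1:CG31617, the somatic linker histone, read 0.41, 0.43, 1.17 and 0.99 log2 over GFP on the EnRep arrays. Its values were 0.61, 0.32, 0.49 and 0.92 on the Dichaete WT arrays and -0.31, 0.31, 0.61 and 0.44 on the HMG- arrays. The fit, with dye orientation as a term, put it 0.75, 0.59 and 0.26 above GFP in EnRep, Dichaete WT and HMG- embryos (SE 0.11 each). It was thus above GFP on all 8 arrays of EnRep and Dichaete WT, and below it on HMG- replicate 1 alone.

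His2A:CG31618, which pairs with H2B in the nucleosome, had the widest gap between dyes among the clustered probes. Its EnRep values were 0.04 and 0.14 with the construct in Cy3 and 1.30 and 1.12 with it in Cy5. Its Dichaete WT values were 0.26, -0.06, 0.37 and 0.77 and its HMG- values -0.49, 0.13, 0.58 and 0.58. The mean of the Cy5 arrays exceeded that of the Cy3 arrays by 1.12 log2 in EnRep, 0.47 in Dichaete WT and 0.76 in HMG- embryos. The fitted ratios of 0.65, 0.34 and 0.20 (SE 0.12 each) are thus means of arrays that differ more by dye than by construct.

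His2B:CG17949, the partner of H2A, read 0.45, 0.65, 1.15 and 1.10 on the EnRep arrays. On the Dichaete WT arrays it read 0.44, 0.13, 0.55 and 0.54, and on the HMG- arrays -0.38, 0.51, 0.28 and 0.25. It had the largest fitted ratio of the members in EnRep embryos, 0.84 log2 (SE 0.12, 1.79-fold), against 0.41 and 0.17 in the other groups. The EnRep arrays with the construct in Cy5 lay above all 8 arrays of Dichaete WT and HMG-, and EnRep replicate 1 lay among them.

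His3:CG31613 and His4:CG31611, the pair that forms the core tetramer of the nucleosome, had much the same value on each array. His3 read 0.40, 0.56, 1.29 and 1.01 in EnRep, 0.58, 0.17, 0.70 and 0.86 in Dichaete WT and -0.35, 0.47, 0.31 and 0.39 in HMG- embryos. His4 read 0.40, 0.42, 1.34 and 0.93 in EnRep, 0.32, 0.14, 0.68 and 0.67 in Dichaete WT and -0.24, 0.41, 0.32 and 0.38 in HMG- embryos. Their fitted ratios were 0.82 and 0.77 in EnRep, 0.58 and 0.45 in Dichaete WT and 0.20 and 0.22 in HMG- embryos (SE 0.11 to 0.12). In each the lowest array was HMG- replicate 1 and the highest EnRep replicate 3. The His3 spot on HMG- replicate 1 and the His4 spots on Dichaete WT replicates 1 and 4 were accepted in neither channel. Without spots that were not accepted in both channels, His3 was 0.33 above GFP in HMG- embryos and 0.49 lower there than in EnRep embryos.

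BigH1 split by dye orientation, and so also by pair of replicates, in EnRep and Dichaete WT embryos. It was 0.99 and 0.76 log2 above GFP on the EnRep arrays with the construct in Cy3 and -0.62 and -0.62 on those with it in Cy5. The Dichaete WT arrays gave 0.86 and 0.49 in Cy3 and -0.45 and -0.55 in Cy5. The HMG- arrays gave 0.87, 0.97, 0.72 and 0.59, all above 0 whichever dye the construct carried. Within its own array BigH1 stood above 98.5% to 99.8% of all probes on the HMG- arrays, and above 1.22% to 11.3% of them on the Cy5 arrays of EnRep and Dichaete WT. On the Cy3 arrays it stood as high in EnRep embryos, above 99.9% and 99.5%, and above 97.9% and 92.6% in Dichaete WT embryos. The fitted ratios were 0.13, 0.09 and 0.79 (SE 0.15 each) in EnRep, Dichaete WT and HMG- embryos. The first pair are means of values of opposite sign and describe no array.

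**Figure D1:**
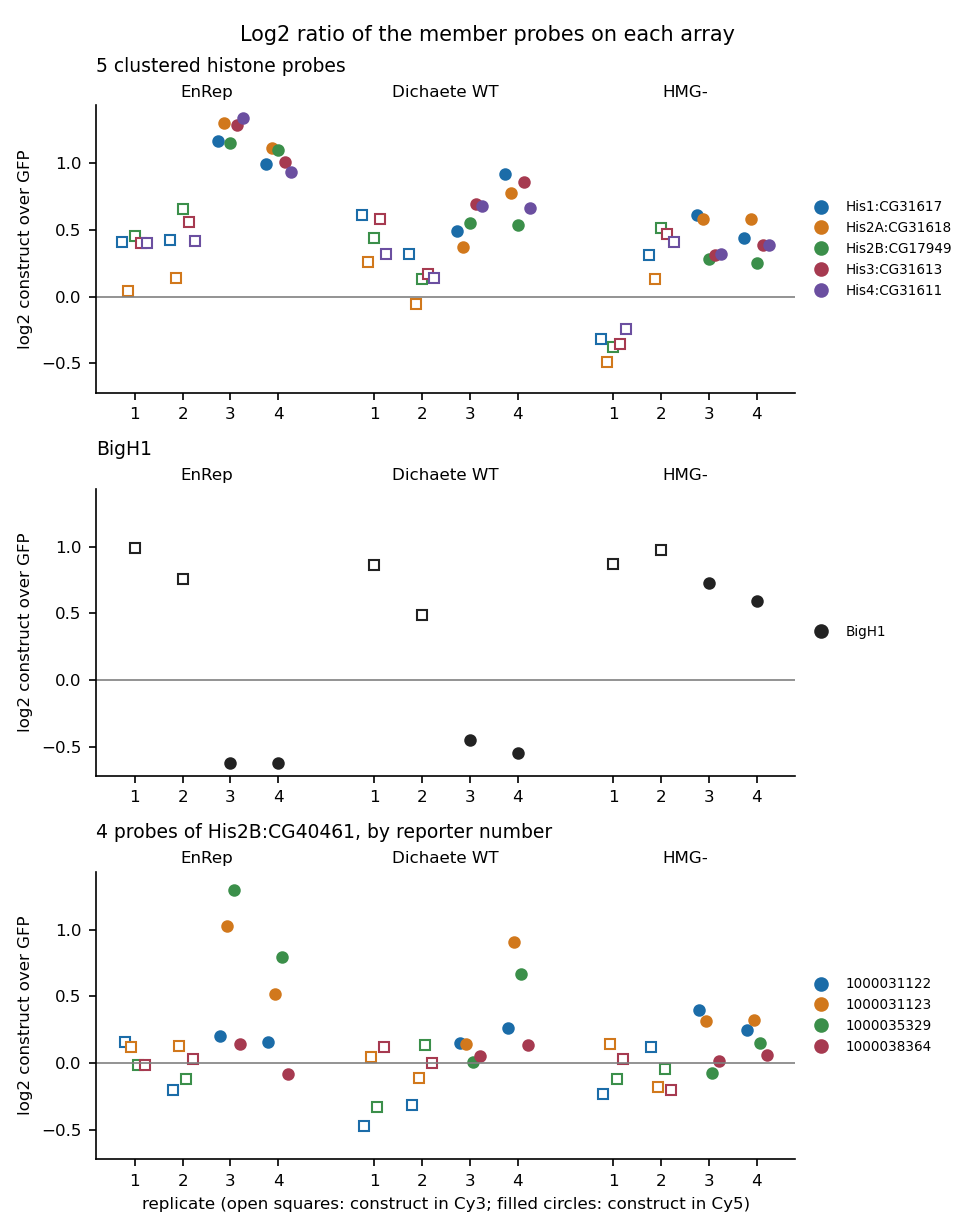
Log2 ratio of construct over GFP (vertical axis) for the member probes on each of the 12 arrays (horizontal axis, replicate within construct). Open squares mark the construct in Cy3 and filled circles the construct in Cy5. The clustered histone probes are highest on EnRep replicates 3 and 4. BigH1 changes sign between the dye orientations in EnRep and Dichaete WT but stays between 0.59 and 0.97 in HMG-. The 4 probes of His2B:CG40461 disagree among themselves.

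The 4 probes of His2B:CG40461 did not give a common value. Reporter 1000035329 was above GFP in EnRep embryos only with the construct in Cy5, at 1.30 and 0.79, against -0.01 and -0.12 in Cy3. It read -0.33, 0.14, 0.01 and 0.67 in Dichaete WT and -0.12, -0.04, -0.07 and 0.15 in HMG- embryos. Reporter 1000031123 read 0.12, 0.13, 1.03 and 0.52 in EnRep, 0.05, -0.11, 0.14 and 0.91 in Dichaete WT and 0.15, -0.18, 0.32 and 0.32 in HMG- embryos. Both showed their high values where the construct was in Cy5. For reporter 1000031123 the highest values, 1.03 on EnRep replicate 3 and 0.91 on Dichaete WT replicate 4, came from spots accepted in neither channel. Reporter 1000038364 stayed between -0.20 and 0.14 on all arrays, and reporter 1000031122 between -0.47 and 0.40. The last was accepted by the spot finder in both channels on only 2 of 12 arrays and had a foreground of 0.985 to 1.66 times the local background, so it was not well above background. The fitted EnRep ratios of the 4 probes ran from 0.02 to 0.49.

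At an adjusted p below 0.05 for construct over GFP, 5 of the 10 member probes were called higher in EnRep, 2 in Dichaete WT and 1 in HMG- embryos, and none lower. The called probes were the 5 clustered ones in EnRep, His1:CG31617 and His3:CG31613 in Dichaete WT, and BigH1 in HMG- embryos. Of all probes, 0.428%, 0.38% and 0.421% were called higher in those comparisons. Nothing is read from these counts, since the members were chosen on them, and they depended on the arrays used. Without EnRep replicate 3, 0 members were called in EnRep embryos, and without EnRep replicate 2, 1 was called. The Dichaete WT count fell to 0 without Dichaete WT replicate 1, 2 or 4, EnRep replicate 1 or HMG- replicate 3 or 4, fell to 1 without Dichaete WT replicate 3 or EnRep replicate 2 or 3, and rose to 4 without HMG- replicate 2. The BigH1 call in HMG- embryos ended without HMG- replicate 2, 3 or 4. Above 0 on all 4 arrays stood 6 members in EnRep, 5 in Dichaete WT and 1 in HMG- embryos, against 9.35%, 7.19% and 8.22% of all probes.

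The dye term of the fit, by which arrays with the construct in Cy5 lay above the construct's mean and those with it in Cy3 below it, was 0.17 to 0.39 log2 for the clustered probes and -0.49 for BigH1. The median size of this term over all probes was 0.11, and 33.1% of all probes were called for it. BigH1 thus read higher with the construct in Cy3 and the clustered probes with it in Cy5. The clustered probes also had smaller ratios with another normalisation. With median centring in place of loess, their median ratio was 0.44 log2 in EnRep, 0.29 in Dichaete WT and 0.13 in HMG- embryos, against 0.77, 0.45 and 0.20.

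The level of each dye channel was compared with that of the 6 GFP samples in the same dye, after the mean intensities of all arrays had been brought to a common distribution. How many of all probes separate construct from GFP samples in this way was not counted. The levels come from the same spots as the ratios that chose the members, so they are a description, here and for BigH1 below. His4:CG31611 in Cy5 read 14.68 and 15.16 log2 in EnRep embryos and 13.54 to 14.20 in the 6 GFP samples, without overlap. In Cy3 it read 14.35 and 14.42 in EnRep embryos and 13.56 to 13.87 in the 6 GFP samples, again without overlap. His2A:CG31618 in Cy5 read 13.67 and 13.87 in EnRep embryos, above the GFP range of 12.28 to 12.94, while in Cy3 its 12.68 and 12.74 lay inside the GFP range of 11.68 to 13.07. The Cy5 levels of Dichaete WT embryos lay above the whole GFP range for His2A, His3 and His4 (13.09 and 13.44, 13.58 and 13.72, 14.31 and 14.54), the GFP maximum for His3 being 13.50. The Cy5 levels of HMG- embryos overlapped the GFP range for 5 of the 5 clustered probes. In Cy3, Dichaete WT embryos lay above the whole GFP range for His2B (13.75 and 14.31, GFP maximum 13.28) and His3 (13.66 and 13.69, GFP maximum 13.24) and overlapped it for the other clustered probes. In Cy3, HMG- embryos lay above it for His4 (13.96 and 13.96, GFP maximum 13.87) and overlapped it for the other clustered probes.

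For BigH1 the HMG- samples stood above every GFP sample in both dyes. They read 9.06 and 9.29 in Cy3, against 7.78 to 8.48 in GFP samples, and 8.85 and 8.91 in Cy5, against 7.88 to 8.32. The EnRep samples read 8.68 and 9.11 in Cy3, above the GFP range, and 7.16 and 7.79 in Cy5, below it. The BigH1 spot of EnRep replicate 3, the lowest of these, was not accepted in the construct channel. Without spots that were not accepted in both channels, the fitted BigH1 ratio was 0.22 in EnRep embryos and 0.79 in HMG- embryos.

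**Figure D2:**
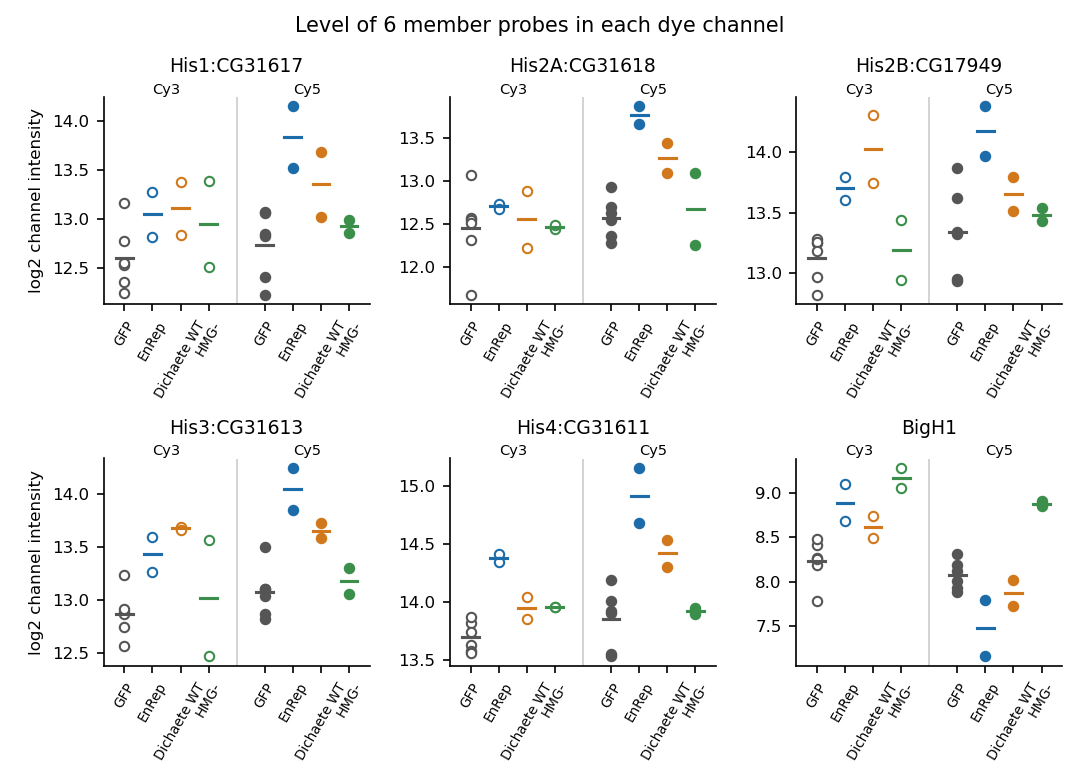
Log2 intensity of each dye channel (vertical axis, a separate scale for each probe) for the 5 clustered histone probes and BigH1, with points for samples and bars for means, open for Cy3 and filled for Cy5. There are 6 GFP samples and 2 of each construct per dye. In Cy5, His4:CG31611 reads 14.68 and 15.16 in EnRep against 13.54 to 14.20 in GFP, and BigH1 in HMG- lies above all GFP samples in both dyes.

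Differences between the constructs were fitted for all members, with p-values adjusted over all 14485 probes. They come from the same ratios that were in view when the members were chosen, so their p-values are a description. None of the 10 members passed in EnRep minus Dichaete WT, HMG- minus Dichaete WT or EnRep minus HMG-, where 0.0207%, 0% and 0.0276% of all probes were called. For the clustered probes the widest differences were those between EnRep and HMG-. His2B:CG17949 was 0.67 log2 higher in EnRep (95% interval 0.31 to 1.04, limma adjusted p = 0.453), His3:CG31613 0.61 (0.24 to 0.98, adjusted p = 0.532) and His4:CG31611 0.55 (0.22 to 0.88, adjusted p = 0.508). His1:CG31617 was 0.49 higher (0.15 to 0.83, adjusted p = 0.65) and His2A:CG31618 0.45 higher (0.08 to 0.82, adjusted p = 0.669). All 5 had an unadjusted p below 0.05, as did 7 of the 10 members and 6.85% of all probes. Leaving out HMG- replicate 2 brought His2B:CG17949 past the threshold, at 0.87 log2 (limma adjusted p = 0.0323), with 14 of all probes called in that setting.

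The differences of the clustered probes from Dichaete WT were smaller. EnRep minus Dichaete WT ran from 0.16 for His1:CG31617 (95% interval -0.18 to 0.50) to 0.43 for His2B:CG17949 (0.06 to 0.79), with a limma adjusted p of 0.997 throughout. HMG- minus Dichaete WT ran from -0.37 for His3:CG31613 (-0.74 to -0.00) to -0.14 for His2A:CG31618 (-0.50 to 0.23), with adjusted p from 0.903 to 0.926. The order EnRep, Dichaete WT, HMG- held for the fitted ratio of each clustered probe, and no neighbours in that order differed past the threshold. Unadjusted p-values below 0.05 were found for 1 member in EnRep minus Dichaete WT and 2 members in HMG- minus Dichaete WT, where 4.46% and 5.27% of all probes had one.

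BigH1 was 0.70 log2 higher in HMG- than in Dichaete WT embryos (95% interval 0.25 to 1.15, limma adjusted p = 0.719). EnRep minus HMG- was -0.66 (-1.12 to -0.21, adjusted p = 0.65) and EnRep minus Dichaete WT was 0.04 (-0.41 to 0.49, adjusted p = 0.999). No BigH1 difference passed, and the intervals leave room for differences of more than 1 log2 between HMG- and either other construct.

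Within the arrays of 1 dye orientation, 2 per construct, the BigH1 differences separated. With the construct in Cy3, EnRep minus HMG- was -0.05 log2 (95% interval -0.40 to 0.31) and HMG- minus Dichaete WT 0.25 (-0.11 to 0.60). With the construct in Cy5, EnRep minus HMG- was -1.28 (-1.63 to -0.92). HMG- minus Dichaete WT in Cy5 was 1.16 (0.80 to 1.51). The change of the EnRep minus HMG- difference between orientations was -1.23 (SE 0.23). The ratios split by dye were among the values that chose the members, so these differences within orientations are a description with no test.

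The clustered probes kept their sign in EnRep minus HMG- in both orientations, with a median of 0.42 log2 in Cy3 (range 0.27 to 0.49) and 0.78 in Cy5 (0.56 to 0.86). EnRep minus Dichaete WT had a median of 0.10 in Cy3 (-0.05 to 0.27) and 0.46 in Cy5 (0.37 to 0.64). HMG- minus Dichaete WT had a median of -0.28 in each orientation.

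**Figure D3:**
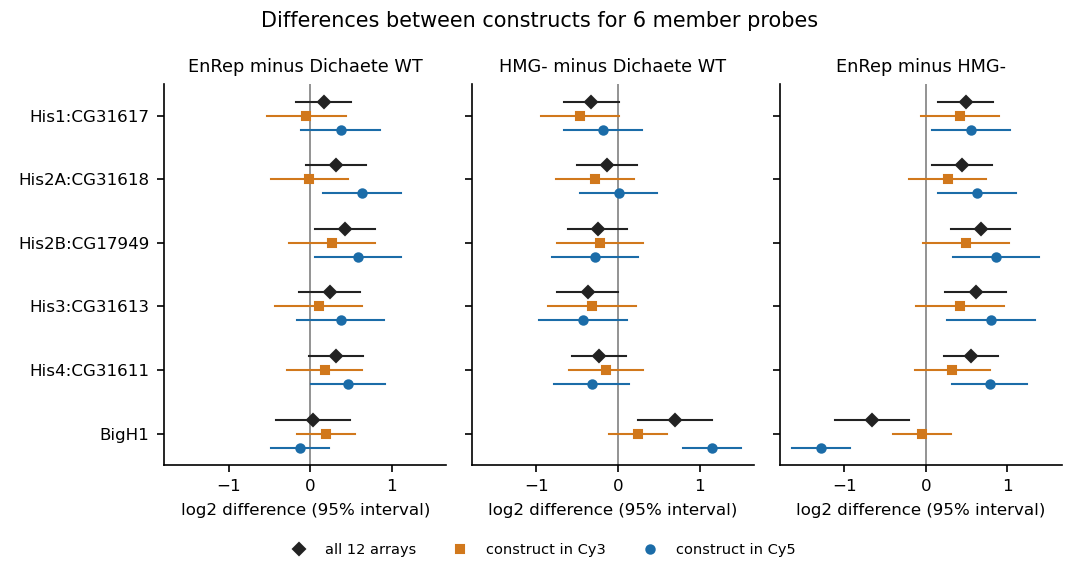
Log2 difference between constructs (horizontal axis, points with 95% intervals) for the 5 clustered histone probes and BigH1, from all 12 arrays and within each dye orientation. EnRep minus HMG- is 0.45 to 0.67 for the clustered probes over all arrays. For BigH1 it is -0.05 with the construct in Cy3 and -1.28 with it in Cy5.

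Across the 12 arrays the log2 ratios of the clustered probes correlated with each other at Pearson r of 0.83 to 0.97 over 10 pairs, and with BigH1 at -0.78 to -0.64. With the mean of each dye orientation subtracted, the values were 0.84 to 0.96 and -0.60 to -0.40. The probes share array, labelling reaction and intensity range, and the clustered ones may share targets, so these values describe the arrays and carry no test. Over the same 12 arrays, the genes most like the median of the clustered probes were CG44153 (r = 0.945), CG40204 (0.934), Rnf11 (0.927), cindr (0.904) and CG14142 (0.901). With the orientation means subtracted they were CG40204 (0.929), CG6434 (0.923), Rnf11 (0.919), tbrd-1 (0.915) and twf (0.913). The genes most like BigH1 were Tbcb (0.933), gwl (0.932), CG11788 (0.929), MAN1 (0.926) and mud (0.925), or, with orientation means subtracted, Marf1 (0.927), zpg (0.919), CG1847 (0.916), BicC (0.904) and Tbcb (0.897). Only CG40204, Rnf11 and Tbcb appear in both forms of their list.

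The gene lists here and below were chosen with earlier results of these data known, so their calls and p-values over GFP are a description. Of the histone variants, whose mRNAs are generally polyadenylated, 3 of 5 had a named probe and none was called in any construct. His2Av, the H2A variant, lay between 0.08 and 0.17 log2 above GFP, and His4r, a replacement H4 gene, between -0.11 and 0.24. The centromeric H3 variant cid was -0.47 in EnRep embryos (limma adjusted p = 0.178), with -0.39, -0.54, -0.31 and -0.63 on its 4 arrays, and its spots were accepted in both channels on 6 of 12 arrays. The list medians were -0.11, 0.12 and 0.17 in EnRep, Dichaete WT and HMG- embryos, against 0.01, 0.01 and -0.00 over all probes. The EnRep median of the variants stood below the 0.77 of the clustered probes, and the difference was not tested.

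Factors that process histone mRNA or act at the histone locus gave 1 call among 14 genes with a probe of 15 listed. It fell in Dichaete WT embryos, where 0.863% of all probes were called in either direction. Lsm10, a subunit of the U7 snRNP that cuts histone pre-mRNA, was called lower in Dichaete WT embryos, at -0.34 log2 (SE 0.06, limma adjusted p = 0.0308), on 4 of 4 arrays. The array values were -0.55, -0.53, -0.21 and -0.06, so the arrays with the construct in Cy3 were the lower ones. The gene mxc, of the scaffold of the histone locus body, was -0.26 (adjusted p = 0.27) and Sym, a cleavage complex scaffold, -0.21 (adjusted p = 0.306) in EnRep embryos, and neither passed. In EnRep embryos 2 of 14 genes were above 0, against 53.1% of all probes, and the list median was -0.06. The list medians were 0.03 and -0.00 in Dichaete WT and HMG- embryos. Histone chaperones, 12 of 13 with a probe, held no call. Caf1-105, a subunit of the CAF-1 complex that deposits H3 and H4 at replication forks, was closest, at -0.35 in EnRep embryos (adjusted p = 0.0579), with -0.45, -0.31, -0.34 and -0.32 on its 4 arrays.

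DNA replication genes, 14 of 18 with a probe, lay slightly below GFP where the clustered histone probes lay above it. Their medians were -0.09, -0.06 and -0.12 log2 in EnRep, Dichaete WT and HMG- embryos, with 4, 3 and 2 of 14 above 0. Over all probes the share above 0 was 53.1%, 51.8% and 49.3%. Cdc45, part of the replicative helicase, fell by 0.44 in EnRep (limma adjusted p = 0.0484) and by 0.51 in Dichaete WT embryos (adjusted p = 0.0277), on 4 of 4 arrays in each. It was at -0.40 in HMG- embryos (adjusted p = 0.0659), which did not pass, on 4 of 4 arrays. Orc5, a subunit of the origin recognition complex, fell by 0.37 in Dichaete WT embryos (adjusted p = 0.0427). Its arrays read -0.37, -0.33, -0.43 and -0.34. Calls among these lists numbered 1 in EnRep and 3 in Dichaete WT embryos, where 0.753% and 0.863% of all probes were called in either direction. They fell to 0 without EnRep replicate 2, 3 or 4, Dichaete WT replicate 1, 2 or 4 or HMG- replicate 1, 3 or 4 for EnRep, and without any 1 Dichaete WT array or HMG- replicate 3 or 4 for Dichaete WT. The EnRep count rose to 2 without Dichaete WT replicate 3 or HMG- replicate 2.

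Maternal transcripts that are cleared in the early embryo stood above GFP, as BigH1 did, in HMG- embryos. Of 10 listed genes 7 had a probe, and all 7 were above 0 in HMG- embryos, as were 49.3% of all probes. Their median there was 0.70 log2, against medians of -0.04 in EnRep and -0.06 in Dichaete WT embryos. Per array the list median was 0.32, 0.30, 1.03 and 0.81 on the HMG- replicates, 0.10, 0.15, -0.28 and -0.24 on the EnRep replicates and 0.32, 0.13, -0.57 and -0.12 on the Dichaete WT replicates. As for BigH1, all 4 HMG- arrays were above 0 and the Cy5 arrays of the other constructs were below it. Within HMG- embryos the dyes went opposite ways. The list median was higher on the Cy5 arrays, while BigH1 was higher on the Cy3 arrays (0.87 and 0.97, against 0.72 and 0.59 in Cy5). The called gene was osk, the determinant of the germ plasm, at 0.72 (limma adjusted p = 0.0386). Of all probes, 0.421% were called higher in HMG- embryos. Its 4 HMG- arrays read 0.19, 0.73, 1.13 and 0.81, and both of its probes gave 0.72. Neither mtrm, a regulator of meiosis (0.80, adjusted p = 0.113), nor swa, which acts in localising bicoid mRNA (0.81, adjusted p = 0.134), passed in HMG- embryos. The part of embryo age or of retained eggs in the BigH1 values was not tested.

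Germ cell genes, 9 of 10 with a probe, gave 2 calls in HMG- embryos, where 0.856% of all probes were called in either direction. The germ line gap junction gene zpg was 0.78 log2 above GFP (limma adjusted p = 0.0333), with 0.33, 0.35, 1.21 and 1.24 on its arrays, and AGO3, of the piRNA pathway, 0.39 above it (adjusted p = 0.0495), with 0.28 to 0.48. The list median was 0.18 in HMG- embryos and 0.06 and 0.03 in EnRep and Dichaete WT embryos, and aub, also of the piRNA pathway, was -0.18. These 3 calls in HMG- embryos, osk included, fell to 0 without EnRep replicate 2 or 3, Dichaete WT replicate 4 or HMG- replicate 2, 3 or 4, to 1 without HMG- replicate 1, and rose to 5 without EnRep replicate 4. Without the 3 arrays with raised late genes, a setting chosen after the values had been seen, they numbered 9, and calls in EnRep embryos 5. Calls over all probes rose too in that setting, to 428 in HMG- embryos from 124 and to 311 in EnRep embryos from 109. The differences between constructs did not pass for osk, zpg or AGO3.

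**Figure D4:**
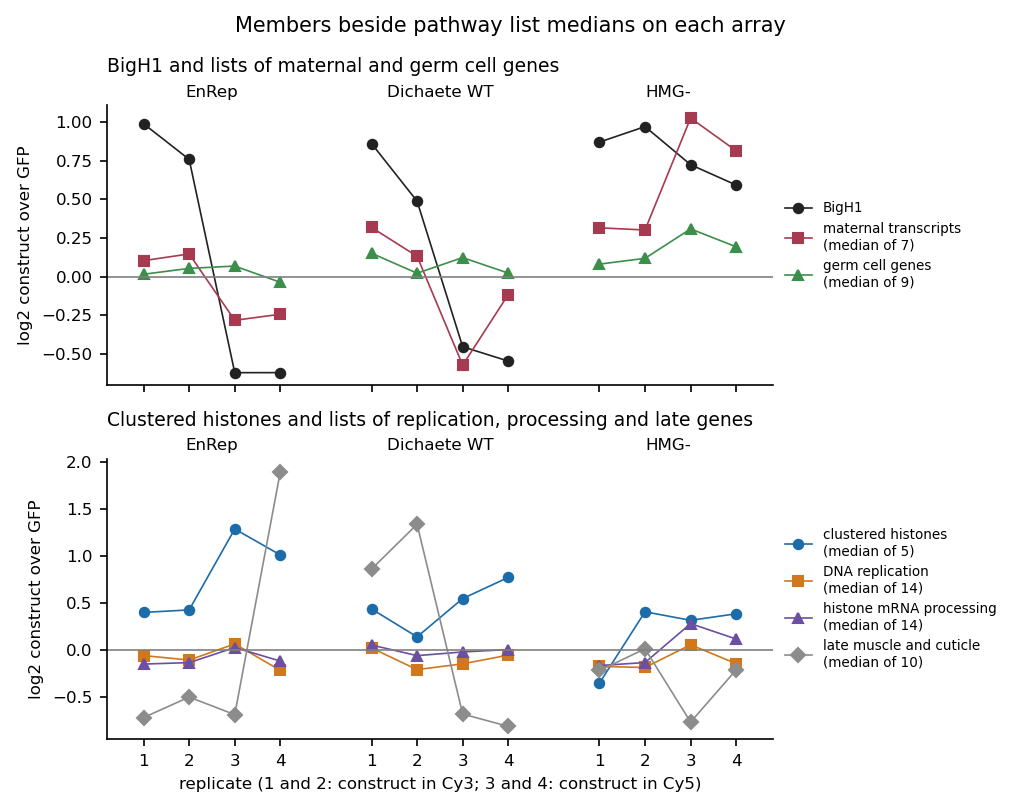
Log2 ratio of construct over GFP (vertical axis) on each array (horizontal axis, replicate within construct). The upper panel shows BigH1 with the medians of maternal and germ cell genes, and the lower panel the median of the clustered histone probes with the medians of 3 other lists. The maternal median is above 0 on all 4 HMG- arrays and below 0 on the Cy5 arrays of EnRep and Dichaete WT, and the late gene median is 0.86 to 1.90 on 3 arrays.

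The level of the clustered probes in EnRep embryos was as high without the arrays with raised late genes. Without EnRep replicate 4 and Dichaete WT replicates 1 and 2, their median was 0.81 log2 in EnRep, 0.40 in Dichaete WT and 0.20 in HMG- embryos, against 0.77, 0.45 and 0.20. BigH1 then stood at 0.25, -0.12 and 0.79, so its Dichaete WT value turned sign. In Dichaete WT embryos leaving them out keeps only the orientation with the construct in Cy5. Without these arrays 0 members passed in EnRep minus Dichaete WT, HMG- minus Dichaete WT or EnRep minus HMG-, where 0.0276%, 0.159% and 0.297% of all probes were called. HMG- minus Dichaete WT for BigH1 was then 0.91 (limma adjusted p = 0.267).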

How the data were processed

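Two-colour arrays of 12 construct and GFP sample pairs were analysed. Per the file headers, the deposited scanner files give median foreground and background intensity per spot in Cy3 and Cy5, as found by Dapple and not normalized. The deposited series table holds the authors' log2 ratios, used as an alternative. Their normalization is not given in the sources used here, and the submitters' processing notes name limma. Intensities were read in R 4.3.3 with limma 3.58.1, corrected by normexp (offset 50) and normalized by global loess. Signs were set to construct over GFP from the labelled dyes, and repeated spots were averaged to 14485 probes. Of 18240 spots, 3671 were not analysed here. Of the probes, 12574 carry 1 symbol, 96 several and 1815 none. Channel levels used quantile scaling of mean intensities (Aquantile).

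The limma model held a mean for each construct and 1 dye orientation term, over all 12 arrays, with 8 residual degrees of freedom. P-values are two-sided, with the Benjamini-Hochberg adjustment across the 14485 probes and a threshold of 0.05. They measure the spread between biological replicates as the labels number them. The GFP sample of each array is its own control in the ratio, and the 3 differences between constructs share arrays. Residuals of arrays with the same replicate number correlated at -0.64 to 0.24 (12 pairs), so the numbers were not taken to pair the arrays. The model was run on simulated data with independent noise and 1 dye term shared by the constructs, as the model assumes. It thus could not test whether the arrays meet these assumptions. The members and gene lists were chosen with earlier results of these data known. Named genes are all members, D, up to 5 genes most like the members, and in each list the called genes and up to 4 with the smallest p, of which not all are reported. For a gene with several probes the brighter was used. Alternatives changed the background correction, normalization, dye term, arrays, weights, variance prior and probe filter, added the replicate number as a block, and left out each array in turn.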

Additional observations from a re-analysis of the deposited data

Results flagged for a closer look

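In each construct's 4 arrays, the lowest or highest value of each member probe was compared with the rest. Of 30 such groups, 2 held an array far from the other 3, and chance gives about 1 in 20. His4:CG31611 was at -0.24 log2 over GFP on HMG- replicate 1, where the other HMG- arrays gave 0.32, 0.38 and 0.41. All 5 clustered histone probes were below 0 on that array, where the His3:CG31613 spot was accepted in neither channel. Reporter 1000031122 of His2B:CG40461 was at -0.20 on EnRep replicate 2, where the others gave 0.16, 0.16 and 0.21. That spot was not accepted in the GFP channel, and the spots of the other 3 arrays were accepted in neither channel.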

How the results depend on the processing

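The median of the clustered probes over GFP kept its direction with any 1 array left out, at 0.68 to 0.82 log2 in EnRep, 0.41 to 0.48 in Dichaete WT and 0.06 to 0.31 in HMG- embryos. BigH1 ran from -0.01 to 0.22, from -0.02 to 0.14 and from 0.63 to 0.94, and array weights put it at 1.00 in HMG- embryos. Calls of members over GFP (5, 2 and 1) were 0 to 5, 0 to 4 and 0 to 1 with 1 array left out. In EnRep embryos they were 1 with median centring or no dye term and 0 with its own arrays alone or a trended and robust variance. In Dichaete WT embryos they were 1 with offset 10, the deposited log2 ratios or accepted spots only, and 0 with median centring, no dye term, own arrays, trended variance or without the 3 arrays with raised late genes. In HMG- embryos they were 0 with offset 10, no dye term or trended variance. Genes called in the lists (1, 3 and 3) were 0 to 2, 0 to 3 and 0 to 5 with 1 array left out. In EnRep embryos they were 0 with no background correction, offset 10, no dye term, own arrays or trended variance, 2 with print-tip loess or without the dimmest probes, 3 with array weights, 4 with median centring and 5 without the 3 arrays. In Dichaete WT embryos they were 1 with deposited ratios or without the 3 arrays and 0 with no dye term, own arrays or trended variance. In HMG- embryos they were 0 with offset 10, no dye term or trended variance, 1 with median centring, 6 with own arrays, 13 with array weights and 9 without the 3 arrays. With the replicate number as a block, members called were 0 in Dichaete WT and 0 in HMG- embryos, list genes 1 and 1, and all probes 53, 39 and 62 against 109, 125 and 124. Same-numbered arrays' residuals correlated at -0.64 to 0.24, so the number is only a label here. Over all settings the probes called ran from 4 to 353, 6 to 466 and 9 to 1099. Without the 3 arrays they were 311, 103 and 428. Between constructs, EnRep minus Dichaete WT for BigH1 turned to -0.074 with print-tip loess and -0.12 within Cy5 arrays, and ran from -0.10 to 0.15 with 1 array left out. Within Cy3 arrays it turned to -0.0458 for His1:CG31617 and -0.0112 for His2A:CG31618. HMG- minus Dichaete WT for His2A:CG31618 turned to 0.10 without the 3 arrays and 0.00814 within Cy5 arrays. EnRep minus HMG- for BigH1 was -1.28 within Cy5 arrays. The fit's count of 1 member there is no test, since the dye split was used to choose the members. For His2B:CG17949 it ran from 0.53 to 0.87 with 1 array left out, and members called from 0 to 1. Settings on accepted spots, on the 3 arrays and within 1 orientation were chosen after seeing the data, and the cause of these changes was not tested. Dim spots limit the reporters 1000031122 and 1000038364.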
